A study of Mus musculus with 6 samples.

Results

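The respiratory chain genes of 6 mouse leg tumors are described here, with the genes encoded by the mitochondrial genome (mt-) kept apart from those encoded in the nucleus. The genes were taken by annotation: protein-coding genes of GENCODE mouse release 21 whose symbols name a subunit of complexes I to V. This gave 91 of the 17312 genes in the table, 8 of them mt-encoded and 83 nuclear. The nuclear genes comprised 38 named for complex I, 4 for complex II, 8 for complex III, 16 for complex IV and 17 for complex V. Of the same families, mt-Co2, mt-Co3, mt-Atp6, mt-Atp8, mt-Nd4l, Cox7b2, Cox8c and a second entry for Atp5o are not among the 17312 genes. Sums and shares of the mt-encoded genes, and ratios to their sum, therefore cover only the 8 genes present.

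Of the 6 tumors, 3 arose from a Cre-lox inducible allele of SS18-SSX2 and 3 from such an allele of SS18-SSX1. SS18-SSX2 and SS18-SSX1 are the common forms of the fusion oncoprotein of synovial sarcoma, a soft tissue cancer. In every animal TATCre, a cell-penetrating form of Cre recombinase, was injected into soft tissue in front of the shin, with no other treatment, and tumors were taken about 1 year later. The labels give no age, and whether each tumor came from its own mouse is not stated, so the spread behind every p-value may be technical. Cre was given locally, and a whole leg tumor also holds the host's own muscle, vessels and blood cells.

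The respiratory chain passes electrons from NADH (complex I) and succinate (complex II) to oxygen (complex IV) by way of complex III, and complex V uses the proton gradient they build to make ATP. Complexes I, III, IV and V are mosaics: a few core subunits are read from the compact mitochondrial genome inside the organelle, and the other subunits are nuclear genes made in the cytosol and imported. Several nuclear subunits of complex IV exist as a widely expressed form and a form of heart and skeletal muscle.

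Levels are FPKM, fragment counts divided by transcript length and library size. A comparison between tumors also depends on what else each library holds. Shares of the summed FPKM are therefore given beside the sums of the mt-encoded and nuclear genes. The steps between low FPKM values put 7285853 to 17546247 reads behind a tumor, with SS18-SSX2 tumor 2 the shallowest and SS18-SSX1 tumor 3 the deepest, and 1 read in a 1 kb transcript was worth 0.137 FPKM in the shallowest and 0.0570 FPKM in the deepest. Tumor 2 of each genotype was rich in skeletal muscle RNA: the 22 skeletal muscle fibre markers summed to 132, 5862 and 168 FPKM in SS18-SSX2 tumors 1, 2 and 3 and to 374, 13561 and 575 FPKM in SS18-SSX1 tumors 1, 2 and 3. The summed level of 8 mast cell markers was 31.3, 64.3 and 13.8 FPKM in the SS18-SSX2 tumors and 105, 64.2 and 2528 FPKM in the SS18-SSX1 tumors, so SS18-SSX1 tumor 3 stood apart. The 10 macrophage markers summed to 147, 625 and 162 FPKM in the SS18-SSX2 tumors and to 49.5, 355 and 387 FPKM in the SS18-SSX1 tumors. Markers of synovial sarcoma were present throughout. Their 8 genes summed to 216, 277 and 255 FPKM in the SS18-SSX2 tumors and to 155, 214 and 151 FPKM in the SS18-SSX1 tumors. Their mean log2(FPKM + 1) was 4.447, 4.097 and 4.583 in the SS18-SSX2 tumors and 3.948, 4.293 and 3.982 in the SS18-SSX1 tumors. The sum of SS18-SSX2 tumor 2 was mostly Igf2 (117 FPKM, its highest value) and Twist1 (90.2 FPKM). Cdh2, Bcl2, Fgfr2 and Fgfr3 had their lowest values in that tumor, and Tle1 and Sox9 had neither extreme there. Xist, the RNA of the inactive X chromosome, ran from 56.3 to 175 FPKM in the SS18-SSX2 tumors and from 3.58 to 7.03 FPKM in the SS18-SSX1 tumors, and the Y-linked gene Ddx3y from 0 to 0.015 FPKM in the SS18-SSX2 tumors and from 28.2 to 35.2 FPKM in the SS18-SSX1 tumors. Sex-linked expression and genotype therefore cannot be told apart.

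No respiratory chain gene, mt-encoded or nuclear, was called between the genotypes. Differences were tested with limma on log2(FPKM + 1) over the 13873 genes that reached 1 FPKM in at least 3 tumors, and a gene was called at a Benjamini-Hochberg adjusted p under 0.05. Of all tested genes 9 (0.0649%) were called, 6 higher (0.0432%) and 3 lower (0.0216%) in the SS18-SSX2 tumors. All 8 mt-encoded genes and 82 of the 83 nuclear genes were tested, the exception being Atp5g2. At an unadjusted p under 0.05, limma gave 0 of the 8 mt-encoded genes and 1 of the 82 nuclear genes, Cox6b2, where 4.97% of all tested genes had such a p.

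On the log2(FPKM + 1) scale the nuclear genes had a median difference of -0.07, SS18-SSX2 minus SS18-SSX1, with 28 genes higher and 54 lower in mean. The median difference of the 8 mt-encoded genes was -0.54, with 2 higher and 6 lower, and that of all tested genes was 0.01. These medians are descriptions and were not tested. Only 2 of the 82 nuclear genes, Cox6b2 and Atp5g1, had groups that did not overlap, both lower in the SS18-SSX2 tumors, against 3.76% of all tested genes apart in that direction. No gene of either genome was apart in the other direction, where 4.97% of all tested genes were.

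The precision sets which sizes of change the confidence intervals exclude. The standard error of a difference had a median of 0.41 over the nuclear genes (range 0.23 to 1.72) and 0.50 over the mt-encoded genes (range 0.33 to 0.84). The 95% confidence interval lay within a 2-fold change of FPKM + 1 either way for 21 of the 82 nuclear genes. For the mt-encoded genes this count was 0 of 8. The interval lay within a 4-fold change of FPKM + 1 for 78 nuclear and 4 mt-encoded genes. In low genes the same interval allows a larger change of FPKM itself. The 21 include Atp5g1, Ndufab1 and Ndufs5, with means of 1.21, 2.14 and 2.05 FPKM, for which a 2-fold change of FPKM is not excluded. In 79 of the 83 nuclear genes the group means of FPKM were within 2-fold of each other.

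**Figure D1:**
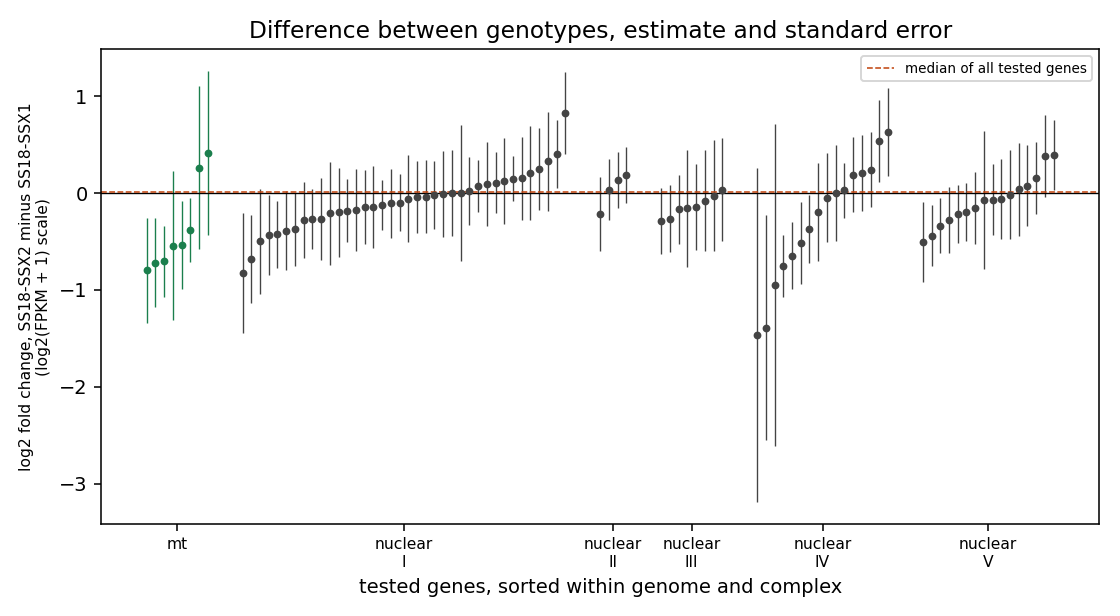
Difference between genotypes for each tested respiratory chain gene on the log2(FPKM + 1) scale, SS18-SSX2 minus SS18-SSX1 (vertical axis), sorted within the mt-encoded genes and the nuclear genes of complexes I to V (horizontal axis). Points are limma estimates, bars are 1 standard error, and the dashed line is the median of all tested genes (0.01); the widest bars belong to the muscle forms Cox8b, Cox6a2 and Cox7a1 of complex IV, and the mt-encoded genes have a median of -0.54.

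The 8 mt-encoded genes were among the more abundant transcripts of the tumors, apart from mt-Nd3. Their order by mean FPKM over the 6 tumors was mt-Co1 (662), mt-Cytb (293), mt-Nd1 (272), mt-Nd5 (133), mt-Nd6 (103), mt-Nd2 (76.1), mt-Nd4 (73.3) and mt-Nd3 (2.14), and mt-Co1 ranked 28 among the 17312 genes of the table. Within every tumor mt-Cytb lay above mt-Nd1, and mt-Nd5 lay above mt-Nd2 and mt-Nd4. The place of mt-Nd6 and the order of mt-Nd2 and mt-Nd4 changed between tumors. Together the 8 genes summed to 2412, 902 and 961 FPKM in SS18-SSX2 tumors 1, 2 and 3. In SS18-SSX1 tumors 1, 2 and 3 they summed to 1474, 1794 and 2146 FPKM. SS18-SSX2 tumor 1 was the highest of all, and tumors 2 and 3 of that genotype were the lowest. As a share of the summed FPKM of the table the mt-encoded genes took 0.929%, 0.204% and 0.301% in the SS18-SSX2 tumors and 0.535%, 0.443% and 0.561% in the SS18-SSX1 tumors, which averaged 0.478% ± 0.394 with SS18-SSX2 and 0.513% ± 0.062 with SS18-SSX1 (SD, n = 3 each). The groups overlapped, and the difference of -0.03 percentage points moved to -0.26 with SS18-SSX2 tumor 1 left out, and turned to 0.10 with tumor 2 left out, 0.05 with tumor 3 left out and 0.07 with both tumors 2 left out.

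The complex IV catalytic subunit mt-Co1 stood at 1284, 301 and 252 FPKM in SS18-SSX2 tumors 1, 2 and 3, against 533, 524 and 1081 FPKM in SS18-SSX1 tumors 1, 2 and 3. SS18-SSX2 tumor 1 and SS18-SSX1 tumor 3 were high, so that the groups overlapped from end to end. The means were 612 ± 583 FPKM with SS18-SSX2 and 713 ± 319 FPKM with SS18-SSX1 (SD, n = 3 each), with a log2 difference of -0.54 (SE 0.77; limma, Benjamini-Hochberg adjusted p = 0.997). For mt-Nd1, a membrane subunit of complex I, the tumors had 355, 150.0 and 146 FPKM with SS18-SSX2, against 305, 324 and 351 FPKM with SS18-SSX1. Here SS18-SSX2 tumors 2 and 3 lay below the 3 SS18-SSX1 tumors and SS18-SSX2 tumor 1 above them. Its log2 difference was -0.72 (SE 0.46; limma, adjusted p = 0.997), with a 95% confidence interval from -1.79 to 0.36.

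Most mt-encoded genes repeated this layout, with SS18-SSX2 tumor 1 apart from the other tumors of its genotype. The only mt-encoded subunit of complex III, mt-Cytb, had 392, 180.2 and 177 FPKM in the SS18-SSX2 tumors and 309, 337 and 364 FPKM in the SS18-SSX1 tumors. The complex I membrane subunit mt-Nd4 had 123, 27.2 and 33.4 FPKM in the SS18-SSX2 tumors and 78.6, 75.2 and 102 FPKM in the SS18-SSX1 tumors, with the most negative log2 difference of the mt-encoded genes, -0.80 (SE 0.54; limma, adjusted p = 0.997). In both genes SS18-SSX2 tumor 1 was the highest of the 6 tumors and tumors 2 and 3 of that genotype were the lowest. The complex I subunit mt-Nd2 had 78.8, 42.8 and 50.4 FPKM in the SS18-SSX2 tumors and 65.5, 131 and 87.6 FPKM in the SS18-SSX1 tumors, and mt-Nd5, another membrane subunit of complex I, had 145, 89.7 and 114 FPKM in the SS18-SSX2 tumors and 142, 182 and 128 FPKM in the SS18-SSX1 tumors. In these genes SS18-SSX1 tumor 2 was the highest and SS18-SSX2 tumor 2 the lowest. Without SS18-SSX2 tumor 1 the median log2 difference of the mt-encoded genes was -0.93, without SS18-SSX2 tumor 2 it was -0.29, and the other 15 alternatives lay between. No mt-encoded gene was called under any of them.

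Within the mt-encoded genes the ratio of mt-Cytb to mt-Nd1 was 1.10, 1.20 and 1.22 in the SS18-SSX2 tumors and 1.02, 1.04 and 1.04 in the SS18-SSX1 tumors, a narrow range in which every SS18-SSX2 tumor lay above every SS18-SSX1 tumor. The ratio of mt-Co1 to mt-Nd1 varied more and overlapped between the groups, at 3.62, 2.01 and 1.73 in the SS18-SSX2 tumors and 1.75, 1.62 and 3.07 in the SS18-SSX1 tumors. These ratios are values within each library and were not tested.

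The mt-Nd6 gene followed another pattern. It is the only protein gene encoded on the opposite strand of the mitochondrial genome, and it had 32.4, 111 and 185 FPKM in the SS18-SSX2 tumors, against 41.7, 214 and 31.0 FPKM in the SS18-SSX1 tumors. SS18-SSX2 tumors 2 and 3 and SS18-SSX1 tumor 2 were thus high, and the other 3 tumors low. The log2 difference was 0.41 (SE 0.84; limma, adjusted p = 0.997). Its ratio to mt-Nd5, its neighbour on the other strand, was 0.223, 1.24 and 1.63 in the SS18-SSX2 tumors and 0.294, 1.18 and 0.241 in the SS18-SSX1 tumors. The same 3 tumors were the highest for the summed mt-tRNA genes of the table, at 149.7, 297 and 797 FPKM in the SS18-SSX2 tumors and 26.9, 1369 and 71.9 FPKM in the SS18-SSX1 tumors. The part of the mt-tRNA level in the mt-Nd6 values was not tested, and the sources used here do not say whether reads were counted by strand.

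**Figure D2:**
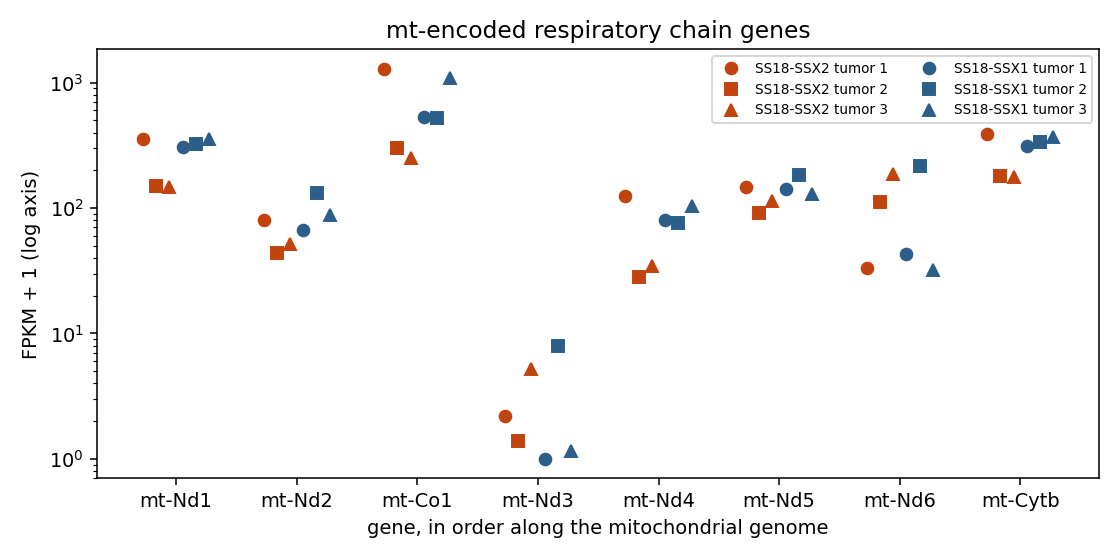
FPKM + 1 on a log axis (vertical) of the 8 mt-encoded genes in the order of their start along the mitochondrial genome (horizontal), with 1 point per tumor. SS18-SSX2 tumor 1 lies with the SS18-SSX1 tumors for mt-Nd1 and mt-Cytb, mt-Nd6 splits the tumors in another way, and mt-Nd3 lies far below its neighbours.

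The gene mt-Nd3, a small complex I subunit, had 1.19, 0.39 and 4.20 FPKM in the SS18-SSX2 tumors, from 6, 1 and 21 reads, and 0, 6.89 and 0.16 FPKM in the SS18-SSX1 tumors, from 0, 33 and 1 reads. The count of 0 in SS18-SSX1 tumor 1 allows a level of up to 0.647 FPKM, counting error only. The nearest genes on either side of it among the 8, mt-Co1 and mt-Nd4, stood at 27.2 FPKM or more in every tumor. The nuclear genome carries a near-perfect copy of mt-Nd3, Gm28438, in a block of 7 unprocessed pseudogenes at chr1:24611535-24616197 (GRCm38, minus strand). The first 100 bases of both are given to show how little separates them, mt-Nd3 from chrM:9459-9558 on the plus strand and Gm28438 from chr1:24613020-24613119 on the minus strand, 5′ to 3′, with the differing base in capitals.
mt-Nd3: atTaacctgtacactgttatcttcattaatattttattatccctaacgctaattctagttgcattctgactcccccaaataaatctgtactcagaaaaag
Gm28438: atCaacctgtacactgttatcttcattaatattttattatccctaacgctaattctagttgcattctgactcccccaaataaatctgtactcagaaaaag
Over the 345 aligned bases there was 1 difference, T3C, counted from 1 at the 5′ end of mt-Nd3. Other genes of the block match mt-Co2, mt-Atp6, mt-Co3 and mt-Nd4l at 100% identity over their aligned bases, and Gm28439 matches 63.6% of the length of mt-Nd4 at 100%. The most abundant of the 8, mt-Co1, is matched over its whole length of 1545 bases by Gm13340 at 97.6% identity. No annotated copy at 95% identity or more was found for mt-Nd1, mt-Nd6 or mt-Cytb. The sources used here do not say how reads with several matches were treated, and the part of the copies in the level of mt-Nd3 was not tested.

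The same held among the nuclear genes: every respiratory chain gene with a mean under 3 FPKM had an annotated copy. There were 7 such genes, namely mt-Nd3, Atp5g1, Atp5g2 and Atp5l of complex V, Ndufs5 and Ndufab1 of complex I, and Cox7c of complex IV, and their closest copies were 96.7% to 100% identical over the aligned bases. A copy is here another annotated transcript with an alignment of at least 50 bases at 95% identity or more. Of the 83 nuclear genes 26 had such a copy, with a median level of 23.9 FPKM, and 57 had none, with a median level of 49.3 FPKM. A mean under 10 FPKM was found in 7 of the 26 and in 3 of the 57. Ndufa12, Ndufb4, Uqcrb, Cox6c, Cox7b and Atp5f1, whose values are given below, were among the 26. Among the 7 genes under 3 FPKM, copies covered from 13.5% of the transcript (Ndufab1) to 99.1% (mt-Nd3). A copy was also found for abundant genes: copies covered all of mt-Co1 (mean 662 FPKM) and 38.4% of Uqcr11 (mean 107 FPKM). These are descriptions across genes, and the part of copies in the levels was not tested.

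Ndufs5, a supernumerary subunit of complex I, had 2.64, 1.76 and 1.22 FPKM in the SS18-SSX2 tumors and 2.18, 1.61 and 2.92 FPKM in the SS18-SSX1 tumors. Its processed pseudogene BC002163, 99.4% identical over 319 aligned bases, had more, with 10.8, 10.1 and 5.26 FPKM in the SS18-SSX2 tumors and 4.93, 4.77 and 12.7 FPKM in the SS18-SSX1 tumors. For Atp5g1, a gene for subunit c of the membrane ring of complex V, the tumors had 0.90, 1.29 and 0.71 FPKM with SS18-SSX2 and 1.59, 1.45 and 1.36 FPKM with SS18-SSX1. Every SS18-SSX2 tumor lay below every SS18-SSX1 tumor, but the log2 difference was -0.34 (SE 0.29; limma, adjusted p = 0.997), and its closest copy in the table, Gm10039, is 99.8% identical over 411 aligned bases. Atp5g3, another gene for subunit c and one with no such copy, had 40.2, 40.5 and 26.4 FPKM in the SS18-SSX2 tumors and 42.6, 37.8 and 68.1 FPKM in the SS18-SSX1 tumors, with overlapping groups. The remaining subunit c gene, Atp5g2, was listed at 0.62, 1.56 and 0.79 FPKM in the SS18-SSX2 tumors and at 1.87, 0.17 and 0.65 FPKM in the SS18-SSX1 tumors.

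**Figure D3:**
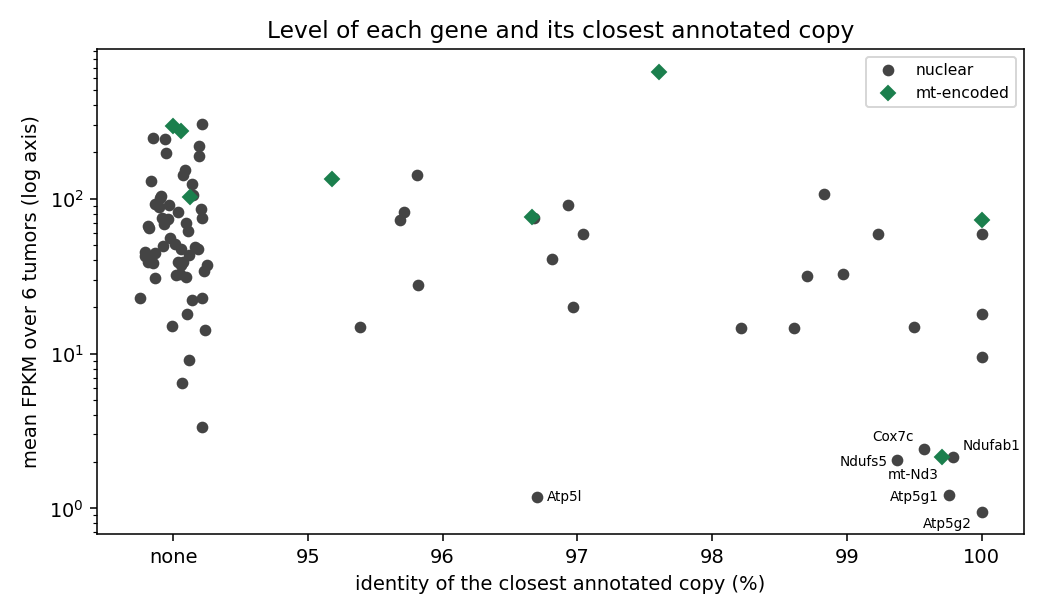
Mean FPKM over the 6 tumors on a log axis (vertical) against the identity of the closest annotated copy in percent (horizontal) for the 91 respiratory chain genes, with genes that had no copy at 95% or more placed at none and spread sideways to be seen. The 7 genes with names are those under 3 FPKM, and all of them lie to the right of none.

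Most nuclear genes shared a layout across the tumors that did not follow genotype. They summed to 4015, 6821 and 4551 FPKM in SS18-SSX2 tumors 1, 2 and 3, against 3284, 6004 and 7072 FPKM in SS18-SSX1 tumors 1, 2 and 3. Tumor 2 of both genotypes and SS18-SSX1 tumor 3 were high and the other 3 were low, with means of 5129 ± 1490 FPKM for SS18-SSX2 and 5454 ± 1953 FPKM for SS18-SSX1 (SD, n = 3 each). The median deviation of a nuclear gene from its own mean, on the log2 scale, was -0.34, 0.38 and -0.21 in the SS18-SSX2 tumors and -0.55, 0.18 and 0.39 in the SS18-SSX1 tumors. As a share of the summed FPKM of the table the nuclear genes took 1.55%, 1.54% and 1.42% in the SS18-SSX2 tumors and 1.19%, 1.48% and 1.85% in the SS18-SSX1 tumors, so on that scale SS18-SSX2 tumor 1 was as high as tumor 2 of either genotype. As a share of the FPKM of protein-coding genes they took 1.76%, 2.64% and 1.91% in the SS18-SSX2 tumors and 1.46%, 2.34% and 2.48% in the SS18-SSX1 tumors, with the same 3 tumors high as for the sums. Over all tested genes the median deviation stayed between -0.07 and 0.05 in every tumor. Of the 83 nuclear genes 44 were lowest in SS18-SSX1 tumor 1 and 35 highest in SS18-SSX1 tumor 3, where 17.3% and 24.6% of all tested genes had their lowest and highest value. SS18-SSX2 tumor 2 held the highest value of 23 nuclear genes and the lowest of 0, where 17.2% and 10.1% of all tested genes had their highest and lowest value.

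The layout was shared by the complexes. The median deviation of nuclear complex I genes was -0.35, 0.31 and -0.20 in the SS18-SSX2 tumors and -0.62, 0.17 and 0.33 in the SS18-SSX1 tumors. That of complex III genes was -0.53, 0.58 and -0.21 in the SS18-SSX2 tumors and -0.68, 0.30 and 0.69 in the SS18-SSX1 tumors, the widest of the 5 complexes, and complex II had the narrowest range. The muscle, macrophage and mast cell markers given above were also high in some of these tumors: muscle in tumor 2 of both genotypes, macrophage markers in those tumors and SS18-SSX1 tumor 3, and mast cell markers in SS18-SSX1 tumor 3. The adipocyte markers, 6 of 8 in the table, summed to 4.35, 56.3 and 1.54 FPKM in the SS18-SSX2 tumors and to 1.46, 18.4 and 73.5 FPKM in the SS18-SSX1 tumors. In SS18-SSX1 tumor 3 nearly all of this was Fabp4, at 71.7 FPKM. Adipoq (0.78), Cfd (0.80), Plin1 (0.089), Cidec (0.15) and Lep (0.034) were each lower there than in SS18-SSX2 tumor 1. The 8 endothelial markers were lowest in tumor 2 of both genotypes and SS18-SSX1 tumor 3. They summed to 110.2, 36.5 and 107 FPKM in the SS18-SSX2 tumors and to 108, 19.5 and 61.5 FPKM in the SS18-SSX1 tumors. The 7 B and plasma cell markers summed to 5.19, 745 and 5.10 FPKM in the SS18-SSX2 tumors and to 2.20, 80.2 and 2.73 FPKM in the SS18-SSX1 tumors. The part of these cell types in the nuclear levels was not tested, and in bulk RNA more cells of a type and more RNA per cell cannot be told apart. With the muscle marker level as a covariate the median nuclear difference was 0.07, and it was also positive when SS18-SSX2 tumor 1 was left out (0.09), or SS18-SSX1 tumor 2 (0.07) or tumor 3 (0.09). It was -0.37 with SS18-SSX1 tumor 1 left out, -0.30 with SS18-SSX2 tumor 2 left out and -0.23 with both tumors 2 left out, so its sign and size rested on single tumors.

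The mt-encoded genes did not follow the nuclear layout. The summed nuclear level was 1.66, 7.56 and 4.74 times the summed mt-encoded level in the SS18-SSX2 tumors, and 2.23, 3.35 and 3.30 times in the SS18-SSX1 tumors. In FPKM, SS18-SSX2 tumor 2 had a high nuclear and a low mt-encoded level and SS18-SSX2 tumor 1 the reverse, whereas as shares of the summed FPKM their nuclear levels were nearly equal (1.54% in tumor 2 and 1.55% in tumor 1). The ratios of the genotypes overlapped, at 4.65 ± 2.95 for SS18-SSX2 and 2.96 ± 0.63 for SS18-SSX1 (SD, n = 3 each).

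**Figure D4:**
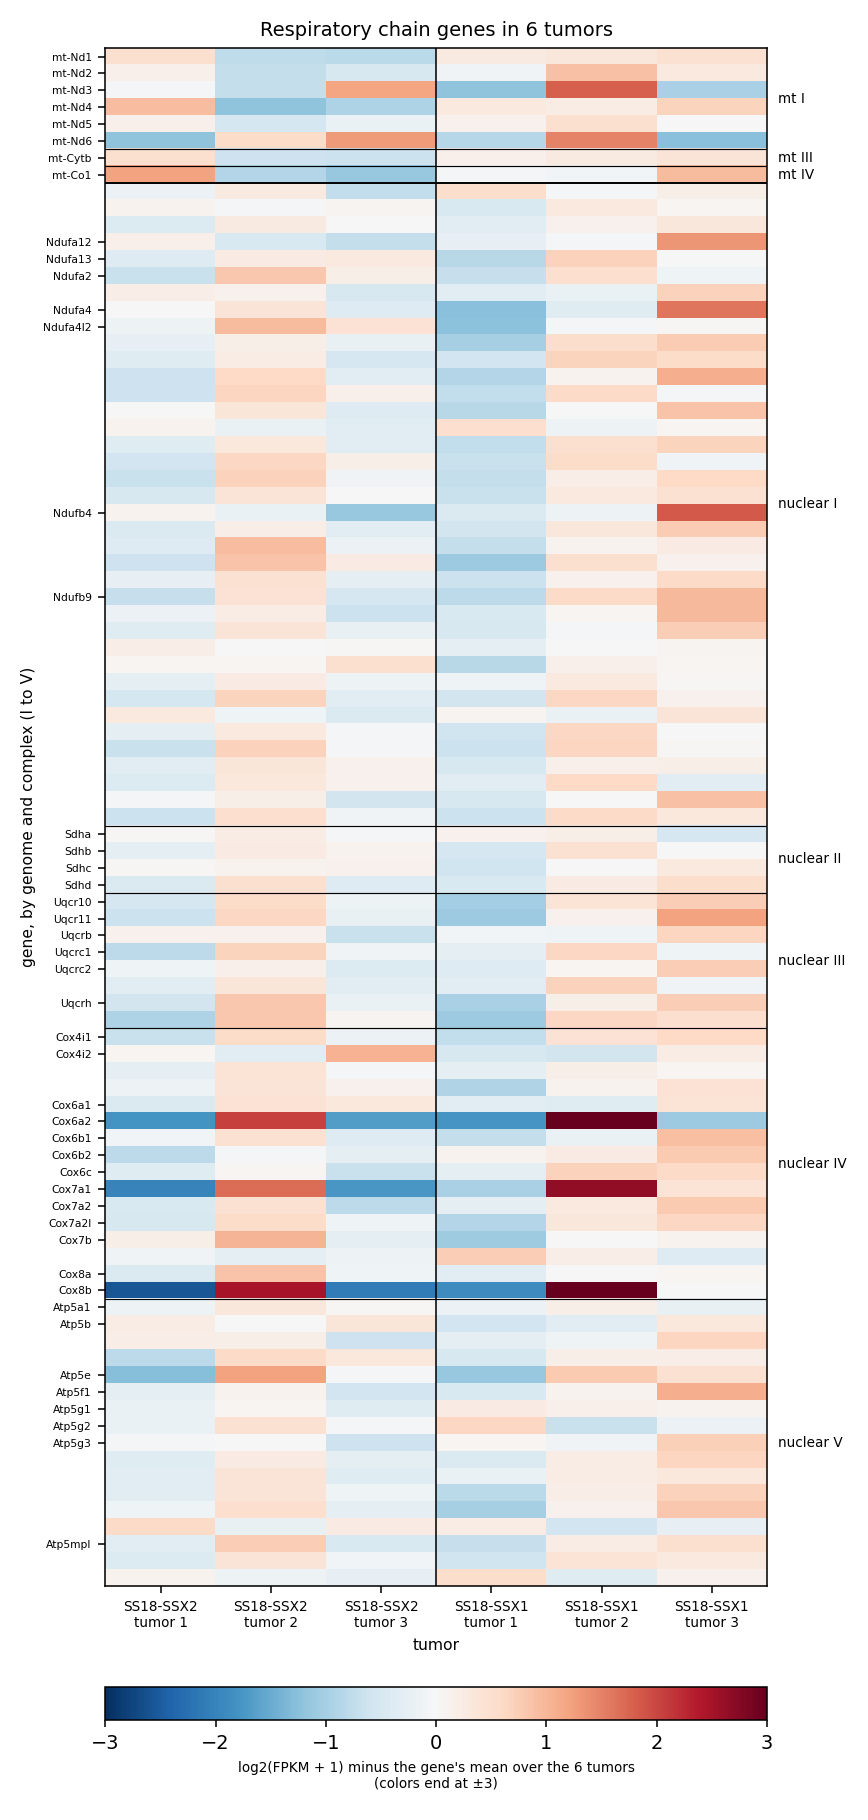
Deviation of each of the 91 genes from its own mean over the 6 tumors, as log2(FPKM + 1), with tumors in columns and genes in rows by genome and complex; red is above and blue below the mean, and colors end at ±3. Names are printed for the genes that the naming rule took. Most nuclear rows are red in SS18-SSX2 tumor 2 and in SS18-SSX1 tumors 2 and 3 and blue in SS18-SSX1 tumor 1, the mt-encoded rows differ from this, and Cox6a2, Cox7a1 and Cox8b stand out in tumor 2 of both genotypes.

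Among nuclear complex I genes, 12 were higher and 26 lower in mean in the SS18-SSX2 tumors, 0 were called by limma and 0 had an unadjusted p under 0.05. The core subunit Ndufs1, which carries iron-sulfur clusters, had 44.1, 38.3 and 39.1 FPKM in the SS18-SSX2 tumors and 31.2, 37.8 and 40.6 FPKM in the SS18-SSX1 tumors. It was the most precisely measured nuclear gene, with a log2 difference of 0.15 (SE 0.23; limma, adjusted p = 0.997) and a 95% confidence interval from -0.39 to 0.69. Its groups overlapped.

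The most abundant gene of this group was Ndufa4, named for complex I but now counted as a subunit of complex IV, with 199, 258 and 151 FPKM in the SS18-SSX2 tumors and 83.0, 154 and 605 FPKM in the SS18-SSX1 tumors. SS18-SSX1 tumors 1 and 3 were its lowest and highest, so the spread within that genotype exceeded any difference between genotypes. Next came the supernumerary subunits Ndufb9, with 104, 229 and 119 FPKM in the SS18-SSX2 tumors and 97.2, 250.3 and 329 FPKM in the SS18-SSX1 tumors, and Ndufa2, whose mean was 153 FPKM. Ndufa13, a further supernumerary subunit, had 72.8, 113 and 117 FPKM in the SS18-SSX2 tumors and 53.6, 154 and 95.9 FPKM in the SS18-SSX1 tumors, with overlapping groups. Ndufb4, another supernumerary subunit, had 8.0, 6.22 and 2.80 FPKM in the SS18-SSX2 tumors and 5.20, 6.46 and 28.6 FPKM in the SS18-SSX1 tumors. Its log2 difference of -0.82 (SE 0.62; limma, adjusted p = 0.997) therefore came with 1 high tumor, SS18-SSX1 tumor 3. The closest copy of Ndufb4, Ndufb4c, was 100% identical over 390 aligned bases and had no values here. Ndufa12, an accessory subunit, was alike in layout, with 14.7, 9.26 and 7.62 FPKM in the SS18-SSX2 tumors and 10.9, 12.7 and 34.4 FPKM in the SS18-SSX1 tumors. Its processed pseudogene Gm15920, 99.5% identical over 402 aligned bases, had 19.0, 5.46 and 9.88 FPKM in the SS18-SSX2 tumors and 0.56, 9.03 and 3.26 FPKM in the SS18-SSX1 tumors, and so did not share the high value of SS18-SSX1 tumor 3.

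Ndufa4l2, a relative of Ndufa4 known as a target of the hypoxia factor HIF-1, had the smallest p of the complex I genes. It had 25.95, 57.3 and 39.8 FPKM in the SS18-SSX2 tumors, against 11.9, 28.1 and 29.8 FPKM in the SS18-SSX1 tumors. SS18-SSX2 tumors 2 and 3 were above every SS18-SSX1 tumor and tumor 1 of SS18-SSX2 was among them, with means of 41.0 ± 15.7 FPKM for SS18-SSX2 and 23.3 ± 9.88 FPKM for SS18-SSX1 (SD, n = 3 each). The log2 difference was 0.83 (SE 0.43; 95% confidence interval -0.16 to 1.82; limma, unadjusted p = 0.091, adjusted p = 0.997).

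Complex II, the succinate dehydrogenase that is also an enzyme of the citrate cycle, is wholly nuclear. The flavoprotein Sdha had 75.3, 84.8 and 70.6 FPKM in the SS18-SSX2 tumors and 80.0, 82.3 and 51.5 FPKM in the SS18-SSX1 tumors, a log2 difference of 0.13 (SE 0.29; limma, adjusted p = 0.997). The iron-sulfur subunit Sdhb averaged 43.3 ± 8.32 FPKM in SS18-SSX2 tumors and 43.3 ± 14.6 FPKM in SS18-SSX1 tumors (SD, n = 3 each). The membrane anchors Sdhc and Sdhd had log2 differences of 0.18 and -0.22, and the groups overlapped in all 4 genes.

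In complex III 7 of 8 nuclear genes were lower in mean in the SS18-SSX2 tumors, with log2 differences from -0.28 to 0.03, and 0 were called by limma or had an unadjusted p under 0.05. Uqcr10, a small subunit, was the most abundant of these 8 nuclear genes. It had 91.8, 192 and 118 FPKM in the SS18-SSX2 tumors and 64.0, 174 and 219 FPKM in the SS18-SSX1 tumors. The hinge protein Uqcrh, which links cytochrome c to the complex, had a like layout, with 77.8, 199 and 98.2 FPKM in the SS18-SSX2 tumors and 57.3, 129 and 190 FPKM in the SS18-SSX1 tumors. The small subunit Uqcr11 had 58.9, 143 and 80.0 FPKM in the SS18-SSX2 tumors and 43.1, 101 and 216 FPKM in the SS18-SSX1 tumors. SS18-SSX1 tumor 1 was the lowest for these 3 genes. The core protein Uqcrc1 had 55.8, 155 and 90.8 FPKM in the SS18-SSX2 tumors and 80.5, 151 and 88.5 FPKM in the SS18-SSX1 tumors, and Uqcrfs1, the Rieske iron-sulfur protein that passes electrons on, had 36.7, 59.1 and 36.4 FPKM in the SS18-SSX2 tumors and 35.7, 74.7 and 42.3 FPKM in the SS18-SSX1 tumors. Both were highest in tumor 2 of each genotype, the tumors with the most muscle RNA. The other core protein, Uqcrc2, had 53.7, 65.6 and 44.4 FPKM in the SS18-SSX2 tumors and 44.9, 61.4 and 99.2 FPKM in the SS18-SSX1 tumors, with its highest value in SS18-SSX1 tumor 3. Uqcrb had the most negative difference of the 8 nuclear genes. It had 15.4, 15.4 and 8.43 FPKM in the SS18-SSX2 tumors and 13.1, 12.7 and 22.6 FPKM in the SS18-SSX1 tumors. It was not highest in tumor 2 of either genotype.

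The 3 nuclear genes that varied most between tumors were muscle forms of complex IV subunits. Cox6a2, the muscle form of subunit VIa, had 0.31, 17.7 and 0.42 FPKM in the SS18-SSX2 tumors, against 0.34, 87.4 and 1.13 FPKM in the SS18-SSX1 tumors. Cox7a1, the muscle form of subunit VIIa, had 3.03, 50.9 and 3.83 FPKM in the SS18-SSX2 tumors, against 7.22, 102 and 20.5 FPKM in the SS18-SSX1 tumors. Cox8b, the muscle form of subunit VIII in the mouse, was listed at 0, 32.2 and 0.38 FPKM in the SS18-SSX2 tumors and had 0.62, 98.3 and 5.04 FPKM in the SS18-SSX1 tumors. All 3 genes were highest in SS18-SSX1 tumor 2 and next in SS18-SSX2 tumor 2, and the groups overlapped in each.

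Their log2 differences were -0.95 (SE 1.66) for Cox6a2, -1.39 (SE 1.16) for Cox7a1 and -1.47 (SE 1.72) for Cox8b (limma, adjusted p = 0.997 for each). As a share of the FPKM of both forms, Cox6a2 made 0.308%, 8.66% and 0.245% in the SS18-SSX2 tumors and 0.315%, 45.0% and 0.613% in the SS18-SSX1 tumors. Cox7a1 made 5.19%, 32.7% and 8.12% in the SS18-SSX2 tumors and 10.4%, 52.2% and 13.6% in the SS18-SSX1 tumors. Cox8b made 0%, 15.1% and 0.417% in the SS18-SSX2 tumors and 0.783%, 49.7% and 4.57% in the SS18-SSX1 tumors. The difference in mean share, SS18-SSX2 minus SS18-SSX1, was -12.2, -10.1 and -13.2 percentage points for Cox6a2, Cox7a1 and Cox8b. Without SS18-SSX1 tumor 2 it was 2.61, 3.32 and 2.50 points, so the sign rested on that tumor, and without both tumors 2 it was -0.19, -5.36 and -2.47 points.

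The muscle marker list moved with these shares. Ckm, the creatine kinase of muscle, had 7.88, 556 and 12.0 FPKM in the SS18-SSX2 tumors and 32.4, 1285 and 69.9 FPKM in the SS18-SSX1 tumors, and the whole list of 22 muscle fibre markers, of which 21 were lower in mean in the SS18-SSX2 tumors and 0 were called, summed to 132 to 5862 FPKM with SS18-SSX2 and to 374 to 13561 FPKM with SS18-SSX1. The part of muscle RNA in the 3 muscle forms was not tested. Cox7a1 kept no fixed ratio to Ckm: per 100 FPKM of Ckm it stood at 38.4, 9.16 and 31.9 FPKM in the SS18-SSX2 tumors and 22.3, 7.90 and 29.3 FPKM in the SS18-SSX1 tumors, higher in the 4 tumors with little Ckm than in the 2 with much. Cox6a2 per 100 FPKM of Ckm was 3.98, 3.19 and 3.53 FPKM in the SS18-SSX2 tumors and 1.06, 6.80 and 1.61 FPKM in the SS18-SSX1 tumors, with no such order. Cox8b per 100 FPKM of Ckm was 0, 5.80 and 3.20 FPKM in the SS18-SSX2 tumors and 1.92, 7.65 and 7.21 FPKM in the SS18-SSX1 tumors, highest in tumor 2 of each genotype. The widely expressed forms Cox6a1, Cox7a2 and Cox8a varied far less, with Cox6a1 at 101 to 187 FPKM in the SS18-SSX2 tumors and 107 to 183 FPKM in the SS18-SSX1 tumors.

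**Figure D5:**
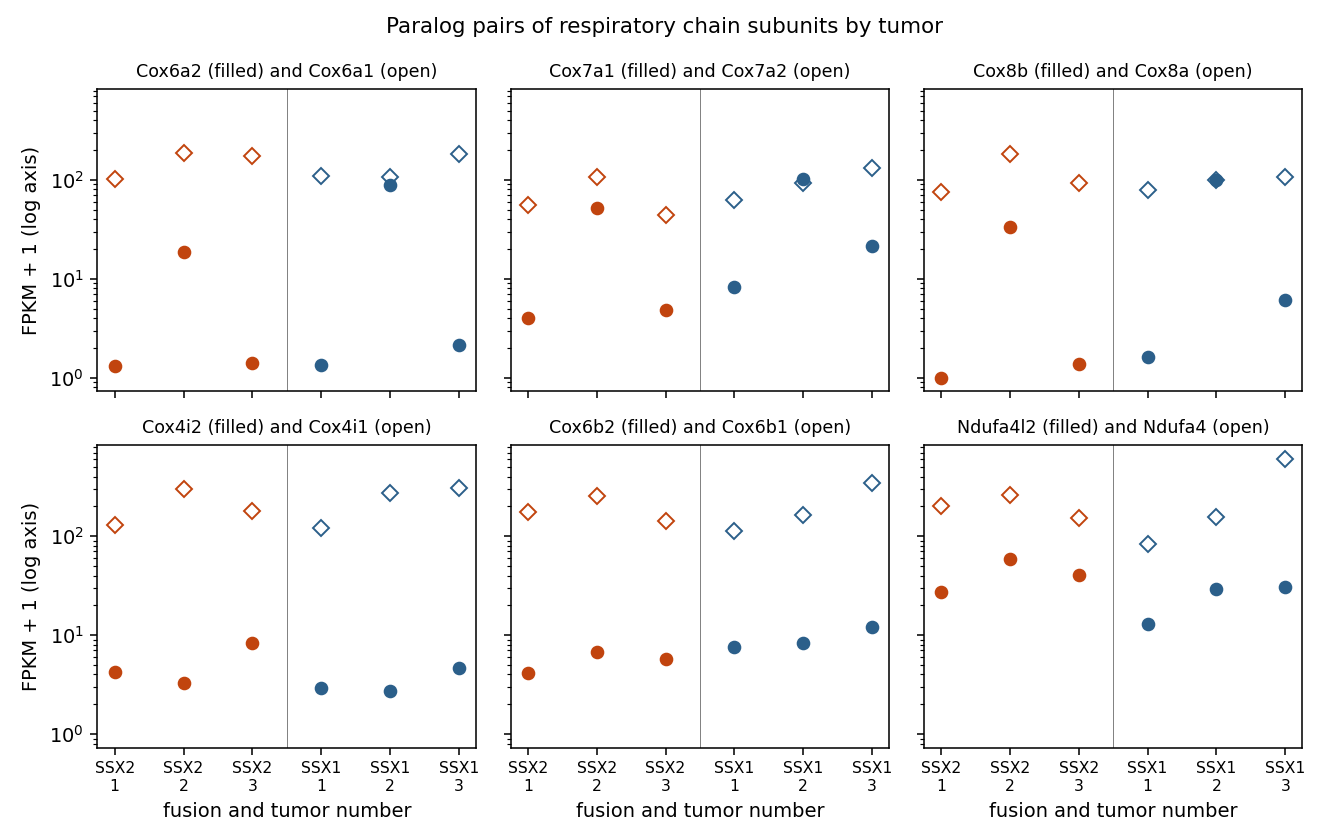
FPKM + 1 on a log axis (vertical) of 6 pairs of related subunits in each tumor (horizontal), with the special form filled and the widely expressed form open. The muscle forms Cox6a2, Cox7a1 and Cox8b reach or come near the level of their partners in SS18-SSX1 tumor 2 and come next closest to them in SS18-SSX2 tumor 2, while the filled points of Cox4i2, Cox6b2 and Ndufa4l2 stay below the open points in every tumor.

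Promoters of 2 muscle forms and 2 widely expressed forms are shown because the muscle forms were among the genes that varied most between tumors and the widely expressed forms varied less. Each is 300 bases around the gene's start, read 5′ to 3′ on the gene's strand, from RefSeq (GRCm38.p6): Cox7a1 at chr7:30183921-30184220 (plus strand), Cox8b at chr7:140900397-140900696 (minus strand), Cox6a1 at chr5:115348909-115349208 (minus strand) and Cox8a at chr19:7217567-7217866 (minus strand). Capitals mark matches, on either strand, to 4 short motifs: GCGCATGC, the core bound by NRF1, a regulator of respiratory chain genes; CCGGAAG, bound by ETS factors such as GABP; AAGATGGC, bound by YY1; and CAGCTG, an E-box of the kind bound by muscle regulators.
Cox7a1: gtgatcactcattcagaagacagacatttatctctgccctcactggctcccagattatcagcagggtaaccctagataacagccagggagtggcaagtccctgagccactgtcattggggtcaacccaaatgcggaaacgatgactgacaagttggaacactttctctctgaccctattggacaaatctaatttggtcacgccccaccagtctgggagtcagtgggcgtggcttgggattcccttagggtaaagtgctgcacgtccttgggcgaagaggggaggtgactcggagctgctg
Cox8b: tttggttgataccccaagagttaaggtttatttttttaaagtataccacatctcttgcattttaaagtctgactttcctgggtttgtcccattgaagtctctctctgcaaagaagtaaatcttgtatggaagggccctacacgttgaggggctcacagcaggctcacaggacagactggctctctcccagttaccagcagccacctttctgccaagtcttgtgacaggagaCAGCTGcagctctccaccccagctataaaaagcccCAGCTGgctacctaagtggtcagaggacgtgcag
Cox6a1: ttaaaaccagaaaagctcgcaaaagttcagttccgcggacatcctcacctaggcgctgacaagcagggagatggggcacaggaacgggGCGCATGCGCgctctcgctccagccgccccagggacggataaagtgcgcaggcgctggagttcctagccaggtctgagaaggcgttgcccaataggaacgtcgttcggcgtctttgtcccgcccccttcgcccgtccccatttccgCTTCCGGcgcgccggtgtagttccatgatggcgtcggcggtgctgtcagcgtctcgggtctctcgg
Cox8a: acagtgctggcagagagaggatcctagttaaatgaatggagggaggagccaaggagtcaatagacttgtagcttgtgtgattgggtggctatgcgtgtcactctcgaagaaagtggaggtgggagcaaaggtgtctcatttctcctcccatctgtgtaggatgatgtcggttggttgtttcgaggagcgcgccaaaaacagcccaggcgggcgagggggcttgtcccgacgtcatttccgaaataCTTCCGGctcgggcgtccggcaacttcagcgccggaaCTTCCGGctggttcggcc
Cox8b held 2 E-box matches, Cox8a held 2 ETS matches, and Cox6a1 held 1 ETS match and a run in which NRF1 letters on both strands overlap. None of the 4 motifs was found in the window of Cox7a1. The window of its widely expressed partner Cox7a2, which is not shown, held none of them either. Promoters were matched for 68 of the 83 nuclear genes. NRF1 letters were in 14.7% of these genes and in 3.05% of all 27025 genes with a window, ETS letters in 23.5% of the nuclear genes and 9.93% of all genes, YY1 letters in 14.7% of the nuclear genes and 3.19% of all genes, and the E-box in 8.82% of the nuclear genes and 18.3% of all genes. These letters were chosen after their counts had been seen. A match is a description of the letters and says nothing of binding in these tumors.

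Among the other forms of complex IV, Cox6b2, known as the testis form of subunit VIb, was the only respiratory chain gene with an unadjusted p under 0.05. It had 3.11, 5.82 and 4.78 FPKM in the SS18-SSX2 tumors, against 6.57, 7.34 and 11.2 FPKM in the SS18-SSX1 tumors. Every SS18-SSX2 tumor was below every SS18-SSX1 tumor, with means of 4.57 ± 1.37 FPKM for SS18-SSX2 and 8.36 ± 2.46 FPKM for SS18-SSX1 (SD, n = 3 each) and a log2 difference of -0.75 (SE 0.32; limma, unadjusted p = 0.049, adjusted p = 0.993). Its partner Cox6b1, at 141 to 254 FPKM in the SS18-SSX2 tumors and 111 to 345 FPKM in the SS18-SSX1 tumors, was far more abundant, so Cox6b2 made 1.75% to 3.28% of the pair with SS18-SSX2 and 3.13% to 5.58% with SS18-SSX1.

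Cox4i2, the form of subunit IV known from lung and from low oxygen, had 3.23, 2.26 and 7.34 FPKM in the SS18-SSX2 tumors, against 1.91, 1.75 and 3.69 FPKM in the SS18-SSX1 tumors. The groups overlapped, with a log2 difference of 0.54 (SE 0.42; limma, adjusted p = 0.997). Its widely expressed partner Cox4i1 was the most abundant of the 16 nuclear genes named for the complex. Cox4i1 had 128, 298 and 178 FPKM in the SS18-SSX2 tumors and 121, 275 and 308 FPKM in the SS18-SSX1 tumors. As Cox4i2 is also known as a gene of pericytes, the 12 pericyte and smooth muscle markers are given beside it. Their mean log2(FPKM + 1) was 3.37, 3.31 and 3.20 in the SS18-SSX2 tumors and 2.76, 2.91 and 2.39 in the SS18-SSX1 tumors, and their summed level ran from 144 to 244 FPKM with SS18-SSX2 and from 78.7 to 282 FPKM with SS18-SSX1. Both upper ends were the muscle-rich tumors 2, where the marker Des made most of the sum. Des stood at 140 FPKM there with SS18-SSX2 and at 202 FPKM with SS18-SSX1, against 3.99 to 9.16 FPKM in the remaining tumors. In mean 10 of the 12 were higher and 2 lower in the SS18-SSX2 tumors, and 1 of them, the smooth muscle actin Acta2, was called higher in the SS18-SSX2 tumors (log2 difference 2.27, SE 0.26; limma, adjusted p = 0.047). Their part in Cox4i2 was not tested.

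Cox6c and Cox7b, small subunits of complex IV, had opposite directions. Cox6c had 14.5, 19.6 and 11.3 FPKM in the SS18-SSX2 tumors, against 15.0, 30.9 and 28.4 FPKM in the SS18-SSX1 tumors (log2 difference -0.65, SE 0.34; limma, adjusted p = 0.997). Cox7b, which is X-linked, had 77.3, 140.3 and 56.6 FPKM in the SS18-SSX2 tumors, against 31.8, 69.1 and 74.0 FPKM in the SS18-SSX1 tumors (log2 difference 0.63, SE 0.45; limma, adjusted p = 0.997). The groups overlapped in both. The other X-linked subunits, Ndufa1 and Ndufb11 of complex I, had log2 differences of -0.43 and 0.15, so the 3 X-linked genes had no common direction. Cox7a2l, a relative of Cox7a2 that joins complexes III and IV into supercomplexes, had 39.2, 82.1 and 50.4 FPKM in the SS18-SSX2 tumors and 29.6, 70.5 and 85.5 FPKM in the SS18-SSX1 tumors, the layout of most nuclear genes.

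Complex V held the most abundant nuclear gene, Atp5b, the catalytic beta subunit, which ranked 61 in the table. It had 348, 292 and 379 FPKM in the SS18-SSX2 tumors and 199, 234 and 371 FPKM in the SS18-SSX1 tumors, with overlapping groups and a log2 difference of 0.38 (SE 0.43; limma, adjusted p = 0.997). The alpha subunit Atp5a1 had 222, 309 and 253 FPKM in the SS18-SSX2 tumors and 217, 278 and 210.3 FPKM in the SS18-SSX1 tumors. Unlike most nuclear genes, Atp5b was not raised in tumor 2 of either genotype above its group's mean. Atp5e, the small epsilon subunit of the central stalk, varied most within the complex, with 30.6, 176 and 73.3 FPKM in the SS18-SSX2 tumors and 33.7, 131 and 105 FPKM in the SS18-SSX1 tumors, high in both tumors 2. Atp5f1, the b subunit of the side stalk, had the most negative log2 difference of the complex, -0.51 (SE 0.41; limma, adjusted p = 0.997), with 23.3, 31.4 and 19.0 FPKM in the SS18-SSX2 tumors and 20.8, 31.4 and 63.0 FPKM in the SS18-SSX1 tumors, where SS18-SSX1 tumor 3 was the single high value. Atp5mpl, a small accessory subunit, had 97.1, 204 and 88.3 FPKM in the SS18-SSX2 tumors and 75.3, 142 and 169 FPKM in the SS18-SSX1 tumors, with a log2 difference of -0.02 (SE 0.46; limma, adjusted p = 0.999). Of the 16 tested genes of complex V, 5 were higher and 11 lower in mean in the SS18-SSX2 tumors, 0 were called by limma and 0 had an unadjusted p under 0.05.

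Genes that build or feed the chain were counted from 6 lists, and 0 were called in any. Of 44 tested assembly factors 12 were higher and 32 lower in mean in the SS18-SSX2 tumors, 0 with an unadjusted p under 0.05 (limma), and the median log2 difference was -0.13. Of these, Coa6, needed for copper loading of complex IV, had 8.85, 15.5 and 5.85 FPKM in the SS18-SSX2 tumors and 12.8, 13.3 and 24.7 FPKM in the SS18-SSX1 tumors, and Bcs1l, which inserts the Rieske protein, had 10.7, 10.5 and 14.4 FPKM in the SS18-SSX2 tumors and 6.82, 7.19 and 11.7 FPKM in the SS18-SSX1 tumors. The groups overlapped in both genes. The 18 genes that copy and express the mitochondrial genome had a median of -0.10, with 7 higher and 11 lower and 0 with an unadjusted p under 0.05 (limma). Tfam, which packages mitochondrial DNA and starts its transcription, had 9.07, 9.71 and 8.08 FPKM in the SS18-SSX2 tumors and 9.19, 9.75 and 19.5 FPKM in the SS18-SSX1 tumors, with SS18-SSX1 tumor 3 apart from the others. Ssbp1, which binds single-stranded mitochondrial DNA, had 5.91, 4.42 and 3.23 FPKM in the SS18-SSX2 tumors and 5.43, 4.62 and 10.01 FPKM in the SS18-SSX1 tumors, again highest in SS18-SSX1 tumor 3.

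The 14 electron carriers and exchangers of phosphate and nucleotides had a median of -0.17, with 4 higher and 10 lower. Among them Ckmt1, a mitochondrial creatine kinase, had 0.77, 3.52 and 0.98 FPKM in the SS18-SSX2 tumors and 7.19, 1.48 and 5.43 FPKM in the SS18-SSX1 tumors, and Atpif1, the inhibitor of complex V run in reverse, had 43.8, 84.4 and 56.5 FPKM in the SS18-SSX2 tumors and 37.1, 51.5 and 49.2 FPKM in the SS18-SSX1 tumors, with overlapping groups in both. The 9 tested transcriptional regulators had a median of 0.18, with 6 higher and 3 lower, and neither list held a gene with an unadjusted p under 0.05 (limma). Ppargc1a, a coactivator that drives mitochondrial gene programs, had 4.83, 4.57 and 4.28 FPKM in the SS18-SSX2 tumors and 5.39, 2.97 and 2.37 FPKM in the SS18-SSX1 tumors. Esrra, a nuclear receptor that works with it, had 10.7, 32.1 and 21.6 FPKM in the SS18-SSX2 tumors and 14.5, 19.3 and 11.3 FPKM in the SS18-SSX1 tumors. Neither gene separated the genotypes. The 23 tested glycolysis and hypoxia genes had a median of 0.08, with 13 higher and 10 lower and 0 with an unadjusted p under 0.05 (limma); the hypoxia-responsive gene Ndrg1 had 1.93, 4.58 and 2.12 FPKM in the SS18-SSX2 tumors and 2.80, 10.9 and 17.0 FPKM in the SS18-SSX1 tumors (log2 difference -1.33, SE 0.58; limma, adjusted p = 0.997). Bnip3, a hypoxia-responsive protein of the outer mitochondrial membrane, had 5.32, 7.03 and 2.83 FPKM in the SS18-SSX2 tumors and 5.64, 11.1 and 10.8 FPKM in the SS18-SSX1 tumors. The groups overlapped in both.

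In the citrate cycle list, which holds the enzymes that supply NADH and succinate, 5 of 17 genes were higher and 12 lower in mean in the SS18-SSX2 tumors, with a median of -0.05. The smallest p of all 6 lists was that of Pdha1, the X-linked alpha subunit of pyruvate dehydrogenase, at 129, 92.0 and 94.5 FPKM in the SS18-SSX2 tumors, against 55.8, 68.2 and 53.7 FPKM in the SS18-SSX1 tumors. Every SS18-SSX2 tumor was above every SS18-SSX1 tumor, with a log2 difference of 0.81 (SE 0.28; limma, unadjusted p = 0.020, adjusted p = 0.823), and Pdha1 was the only gene of the list with an unadjusted p under 0.05. Xist was high in the same tumors, and its part was not tested. Sucla2, a subunit of succinyl-CoA ligase, had 17.2, 17.1 and 13.4 FPKM in the SS18-SSX2 tumors, against 17.9, 26.5 and 23.6 FPKM in the SS18-SSX1 tumors (log2 difference -0.48, SE 0.25; limma, adjusted p = 0.997), again without overlap.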

How the data were processed

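RNA of 6 tumors, 3 per genotype, was measured after RNeasy extraction and Ribo-Zero library preparation, per the labels' protocols. Per the submitters' processing notes, the tool named is Novoalign 2.08.03 and the build mm10. The authors deposited 1 table of FPKM values, which are divided by transcript length and library size, and each tumor has 1 column. The sources used here do not give the counting tool, strand handling or treatment of reads with several matches.

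Identifiers were matched to GENCODE mouse release 21 (GRCm38), which gave symbols for 17029 of 17312 genes. Genes with at least 1 FPKM in 3 or more tumors (13873) entered limma 3.58.1 (R 4.3.3, eBayes with a trend) on the log2(FPKM + 1) scale. The contrast was SS18-SSX2 minus SS18-SSX1. Two-sided p-values were adjusted by Benjamini-Hochberg over these 13873 genes, and calls needed an adjusted p under 0.05. Fold changes on this scale understate those of low genes. The fit and the depth estimate were tested on simulated data.

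Depth came from steps between low values of 1311 single-exon genes: 82.1% to 84.8% of values under 100 reads in a tumor were whole within 0.1 reads, and floors (3 reads) cover counting error only. The 95% confidence intervals are limma's and rest on the spread between tumors. Because not nearly all values came out whole, no count test was run. Copies were found with blastn 2.17.0 among annotated transcripts (at least 50 bases, 95% identity). Figures were drawn with matplotlib 3.10.9 under Python 3.11.15, and tables were handled with numpy 2.4.6 and pandas 2.3.3.

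The members, gene lists and tests were chosen with earlier results of these data known. Named genes were all mt-encoded genes, per complex the 4 most abundant and the 2 with the smallest p, paralogs with known tissue forms, the 10 with the largest spread, and the 2 genes of each pathway list with the smallest p. Uqcrfs1, Ndufs1, Ndufs5, Ndufab1, Atp5l, Cox7c, Ndufa1 and Ndufb11 lie outside this rule and were chosen after their values were seen. Alternatives were 2 other pseudocounts, 2 other filters, 3 other scalings, no trend, a replicate block, a muscle covariate, and leaving out tumors.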

Additional observations from a re-analysis of the deposited data

How the results depend on the processing

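Under all 17 alternatives 0 mt-encoded and 0 nuclear respiratory chain genes were called. The median nuclear log2 difference was -0.07 with all tumors and ranged from -0.37 to 0.09 with 1 tumor left out; the mt-encoded median was -0.54 and ranged from -0.93 to -0.29. Scaling to nuclear protein-coding genes gave a nuclear median of 0.0055 and rescaling to TPM gave -0.0014, where the median of all genes was itself 0.08 in both. Of 762 values for 45 named genes under the alternatives, 71 changed sign, in 22 genes, and the lowest adjusted p was 0.394 (limma). With a replicate block on the tumor number, 0 members were called, 4 nuclear genes had an unadjusted p under 0.05 against 1 without it, and the lowest adjusted p was 0.596. Column names of same-numbered tumors share a first letter (N, A or B) in both genotypes, and the labels do not say what it stands for. Deviations of same-numbered tumors correlated at 0.38, 0.31 and -0.28, and those of other pairs at -0.44 to 0.23. Whether same-numbered tumors form a set was not tested. Over all genes 4 were called with the block, 20 without both tumors 2 and 3 without SS18-SSX2 tumor 3, against 9.

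With 3 tumors a genotype the 95% confidence interval lay within a 2-fold change for 21 of 82 nuclear genes and 0 of 8 mt-encoded genes. For the other genes the interval reached a 2-fold change or more. These intervals do not give the size of change that would have been called, which was larger. Acta2, with a log2 difference of 2.27 and an SE of 0.26, had an adjusted p of 0.047 (limma). Values of genes with near-identical copies, and of genes that overlap on opposite strands, depend on counting rules that the sources used here do not give.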
